A study of Mus musculus with 6 samples.

Results

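The genes described here are 8 acute-phase genes of mouse skin: Saa1, Saa2, Saa3, Lcn2, Hp, Slpi, Serpina3n and Steap4. They were taken by symbol from the 31053 genes of the deposited single-cell RNA sequencing matrices, and each of the 8 symbols matched 1 row. The libraries came from dorsal skin of female C57BL/6 mice aged 8 to 10 weeks, in 3 groups of 2. Sham mice were untreated. IMQ mice had 62.5 mg of 5% imiquimod cream, an agonist of Toll-like receptor 7, put on the shaved back each day for 4 days and were killed 1 day later. IMQ+SHP099 mice had the same cream and were also given SHP099, which inhibits the phosphatase SHP2 allosterically, by gavage at 10 mg/kg each day for 4 days. Each library pooled the skin of several mice, so single mice cannot be separated. The library was the replicate (n = 2 per group), and p-values measure only the spread between such pools.

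Acute-phase proteins are plasma proteins that the liver releases in large amounts during inflammation, mainly under IL-6, IL-1 and TNF, through the transcription factors STAT3, C/EBP and NF-kB. Many are also made locally, at barrier surfaces and by leukocytes. The serum amyloid A proteins bind lipids, with Saa1 and Saa2 as the liver forms and Saa3 as the mouse form made mostly outside the liver. Lcn2 holds back iron by binding bacterial siderophores, Hp binds free haemoglobin, and Steap4 is a membrane metalloreductase of iron and copper. Slpi blocks neutrophil elastase, and Serpina3n is a serine protease inhibitor related to human antichymotrypsin. In psoriatic skin, keratinocytes are a known source of LCN2 and SLPI.

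On GRCm38 the protein-coding genes lie at chr7:46740497-46742980 (Saa1, minus strand, ENSMUSG00000074115), chr7:46751790-46754313 (Saa2, plus strand, ENSMUSG00000057465), chr7:46711998-46715700 (Saa3, minus strand, ENSMUSG00000040026), chr2:32384633-32388252 (Lcn2, minus strand, ENSMUSG00000026822), chr8:109575128-109579172 (Hp, minus strand, ENSMUSG00000031722), chr2:164354070-164389095 (Slpi, minus strand, ENSMUSG00000017002), chr12:104406729-104414329 (Serpina3n, plus strand, ENSMUSG00000021091) and chr5:7960457-7982213 (Steap4, plus strand, ENSMUSG00000012428). The 3 serum amyloid genes are neighbours on chromosome 7. Saa1 and Saa2 are near-identical copies, and Serpina3n has close relatives in its gene cluster, so reads could be split between copies and their counts are uncertain. RefSeq promoter sequence of build GRCm38.p6 was found for 7 of the 8 genes, all but Hp.

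The 250 bases before each of these 7 RefSeq starts, which for Lcn2 and Slpi lie inside the gene spans given above, were searched on both strands for the motifs of the acute-phase factors, because several of the genes moved together in the results that follow. A C/EBP core (TTGCNNAA) was found in 6 of 7, against 9.56% of 32851 promoters. An NF-kB type site (GGGNNTTNCC) was found in 2 of 7 (4.11% of all promoters), and a STAT type site (TTCNNNGAA) in 1 of 7 (7.02%). A match is a description of letters and not a measured site. Stretches of 60 bases around a match are shown 5′ to 3′ on the gene's strand, with the motif in capitals. They lie at chr7:46743129-46743188 (Saa1), chr7:46751624-46751683 (Saa2), chr7:46715742-46715801 (Saa3), chr2:32387922-32387981 (Lcn2), chr2:164356698-164356757 (Slpi) and chr5:7960359-7960418 (Steap4) for the C/EBP core, which reads on the opposite strand in Saa3 and Slpi.
Saa1: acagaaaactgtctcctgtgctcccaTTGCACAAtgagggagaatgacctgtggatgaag
Saa2: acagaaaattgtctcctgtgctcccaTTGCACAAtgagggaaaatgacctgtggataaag
Saa3: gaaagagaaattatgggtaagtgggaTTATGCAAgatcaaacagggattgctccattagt
Lcn2: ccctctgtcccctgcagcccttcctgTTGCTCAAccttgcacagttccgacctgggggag
Slpi: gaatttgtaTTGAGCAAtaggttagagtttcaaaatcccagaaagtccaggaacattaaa
Steap4: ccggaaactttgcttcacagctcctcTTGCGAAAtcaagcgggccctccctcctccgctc

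The Saa1 and Saa2 stretches were identical at 57 of 60 bases. The NF-kB type sites lay in the stretches chr12:104406512-104406571 (Serpina3n) and chr5:7960222-7960281 (Steap4, opposite strand), and the STAT type site in chr5:7960330-7960389 (Steap4). Steap4 thus held all 3 motifs in this window, and its STAT and C/EBP stretches overlap.
Serpina3n NF-kB: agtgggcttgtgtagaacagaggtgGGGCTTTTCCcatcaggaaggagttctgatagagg
Steap4 NF-kB: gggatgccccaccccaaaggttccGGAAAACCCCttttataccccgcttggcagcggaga
Steap4 STAT: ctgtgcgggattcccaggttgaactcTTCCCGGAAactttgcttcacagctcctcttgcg

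The libraries held 7382 to 10293 cells after the study's own limits on UMIs, genes and mitochondrial share, 50850 in all, with a median of 5645 UMIs per cell in IMQ+SHP099 replicate 2 and 18263.5 in IMQ+SHP099 replicate 1. A UMI marks a single captured molecule. Cells were put into classes by scores of marker genes that do not include any of the 8, and each class name below stands for a marker-gated class of cells like that type. Of the kept cells 47052 were gated, and 97.9% of these lay in a cluster whose class was the same. The makeup of the libraries differed widely, since keratinocytes made up 70.3% and 21.2% of Sham cells, 16.7% and 7.72% of IMQ cells and 62.4% and 5.81% of IMQ+SHP099 cells. Levels are therefore given within a class, as CPM, the UMIs of a gene scaled to a common total of UMIs of that class in that library, with replicate 1 before replicate 2. They are compared between libraries and classes but not between genes. Fibroblasts were split into a Plac8 side, a Coch side and a Wif1 side, each named after a marker gene.

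IMQ was first compared with Sham, to see which skin cells carried these genes after the cream. All 8 genes stood at low levels in Sham fibroblasts or keratinocytes, except Serpina3n and Steap4 in fibroblasts, and lay higher in both IMQ libraries in both classes. In edgeR's quasi-likelihood test with Benjamini-Hochberg adjustment over all genes of a class, 8 of 8 genes rose in keratinocytes, where 5.75% of all genes tested were called higher, and 5 of 8 rose in fibroblasts, where 0.269% were. Macrophages and monocytes had 4 of 5 tested genes called higher (3.05% of all genes). The class of lymphatic endothelium had 1 of 4 (0.0588%), blood endothelium 1 of 4 (0.0958%), mural cells 1 of 6 (0.00862%), Schwann cells 2 of 2 (0.251%), Langerhans cells 0 of 5 (0.0904%) and lymphocytes 0 of 4 (0.0%). In Langerhans cells 3 of the 5 had an unadjusted p under 0.05 in edgeR, as had 13.1% of all genes there, and DESeq2 called 2 (1.96% of all genes). In lymphocytes 4 of 4 had such a p, as had 14.5% of all genes, and DESeq2 called 2 (0.995% of all genes).

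Over these 9 classes, 46 of 72 pairs of gene and class were tested, and 22 were called. Over all genes of these classes, 1.31% of 88896 such pairs were called higher and 1.77% lower. A pair that passed the filter on low counts only through the treated libraries had to differ, so these counts describe the tested pairs and support nothing by themselves. Leaving out 1 library gave between 11 calls (without Sham replicate 2) and 21, with 12 without IMQ+SHP099 replicate 1 and 15 without IMQ+SHP099 replicate 2. Without the filter 43 pairs were called, a count given without its share over all genes.

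**Figure D1:**
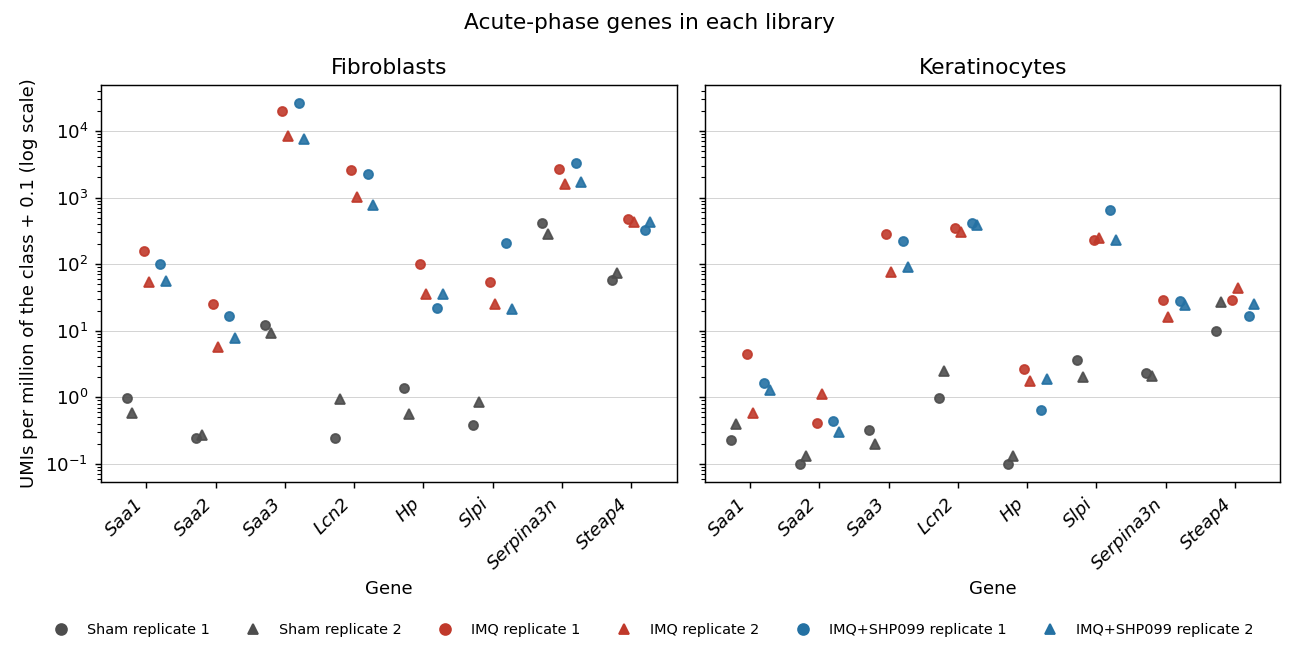
Level of each gene (x axis) in fibroblasts and keratinocytes, in CPM of the class plus 0.1 on a log axis, 1 point per library. The IMQ (red) and IMQ+SHP099 (blue) libraries lie above the Sham libraries (grey) for all 8 genes in fibroblasts, where Saa3 runs from 9.25 to 26285, while Steap4 in keratinocytes spans only 9.83 to 43.5.

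Saa3, the serum amyloid form made outside the liver, reached its highest levels in fibroblasts. It stood at 11.998 and 9.25 CPM in the Sham libraries, 20144 and 8361 in IMQ, then 26285 and 7624 in IMQ+SHP099. Fibroblasts held 93.7% and 95.2% of all Saa3 UMIs of the IMQ libraries, from 44.9% and 59.6% of the cells. The rise from Sham to IMQ was 1409.5-fold (log2 fold change 10.46, SE 1.13, edgeR adjusted p = 0.0251), and both treated groups lay far above Sham. This adjusted p was 0.101 without Sham replicate 2, 0.0629 without IMQ+SHP099 replicate 1 and 0.067 without IMQ+SHP099 replicate 2, with log2 fold changes of 10.09 to 10.48.

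All 3 fibroblast subsets carried the Saa3 change, at different levels. On the Plac8 side Saa3 stood at 14.8 and 0.934 in Sham, 20610.1 and 6742 in IMQ, then 14058 and 4595 in IMQ+SHP099 (log2 fold change 10.76, SE 1.62, edgeR adjusted p = 0.0375). Coch side values were 3.98 and 20.1, 20694 and 13522, and 37643 and 12653 (10.35, SE 1.05, edgeR adjusted p = 0.00147). Wif1 side fibroblasts had no Saa3 UMI in Sham, 1653 and 665 CPM in IMQ, then 708 and 305 in IMQ+SHP099, at least 3464-fold higher in IMQ against a floor of 3 UMIs over the group (edgeR adjusted p = 3.13e-04). Both IMQ levels of the Wif1 side lay below every IMQ level of the other subsets. On the Plac8 side the call was lost without either Sham library and without either IMQ+SHP099 library (adjusted p of 0.087 to 0.108).

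Outside fibroblasts, Saa3 in the IMQ libraries was most abundant in macrophages and monocytes, whose levels were 0 and 8.20 in Sham, 3572 and 2117 in IMQ, then 1153 and 4421 in IMQ+SHP099. The log2 fold change was 8.93 (SE 0.96, edgeR adjusted p = 7.64e-04), with 36 cells in Sham replicate 1, and without Sham replicate 2 the adjusted p was 0.147. The makeup of this class differed between the groups. Its monocyte side held 3 and 28 cells in Sham, 333 and 314 in IMQ, then 13 and 231 in IMQ+SHP099, and its resident macrophage side 32 and 261, 60 and 51, then 25 and 31. In the values of the whole class for every gene below, a change within cells and a change in makeup cannot be told apart. The monocyte side stood at 4293 and 2372 in IMQ and was not tested because Sham replicate 1 held 3 such cells. Resident macrophages reached 802 and 697 in IMQ from 0 and 9.32 in Sham (log2 fold change 6.55, SE 0.89, edgeR adjusted p = 0.00558, 0.0705 without Sham replicate 2), where 0.142% of all genes were called higher. Neutrophils, too few in Sham to be tested, stood at 2077 and 1486 in IMQ. In IMQ+SHP099 neutrophils Saa3 stood at 95.9 and 122, from 10 and 93 cells.

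In keratinocytes Saa3 rose from 0.225 and 0.0996 to 285 and 75.4 (log2 fold change 10.16, SE 1.07, edgeR adjusted p = 0.00105), with 220.4 and 90.9 in IMQ+SHP099. These UMIs sat in few cells, since the 5 highest cells held 40.0% and 66.1% of them in the IMQ libraries. By layer, IMQ levels were 104 and 29.3 in basal, 393 and 128 in suprabasal and 319 and 126 in upper follicle keratinocytes, with Sham at 0 to 0.273, and each rise was called (adjusted p of 5.9e-04, 5.59e-04 and 0.00218). The background of calls was 7.16%, 9.56% and 2.03% of all genes in these subsets.

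Saa3 in the vascular classes rested on very few cells. Mural cells had 0 UMIs in both Sham libraries, 694 and 343 CPM in IMQ, then 111 and 83.4 in IMQ+SHP099, at least 486-fold higher in IMQ (edgeR adjusted p = 0.043), but 5 cells held 88.7% and 74.9% of the IMQ UMIs. The call was lost without Sham replicate 1 (0.0969), Sham replicate 2 (0.342) and IMQ+SHP099 replicate 1 (0.0514). Its smooth muscle cells gave a similar value, at least 385-fold (adjusted p = 0.036), beside a background of 0.0266%. In blood endothelium 1 cell held 1076 of the 1109 Saa3 UMIs of IMQ replicate 2, and in lymphatic endothelium 1 cell held 2035 of the 2052 of IMQ+SHP099 replicate 1. Neither class passed the test (adjusted p of 0.104 and 0.217). Schwann cells rose from 0 UMIs to 53.7 and 34.0 CPM, at least 22.1-fold (edgeR adjusted p = 0.035), which was lost without Sham replicate 2 (0.467) and without IMQ replicate 1 (0.0716).

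Lymphocytes served as the class that should lack these genes, and Saa3 stood there at 0 and 0 in Sham, 36.4 and 58.8 in IMQ, then 62.0 and 58.4 in IMQ+SHP099. After every cell was thinned to 2000 UMIs, 8.95% (95% Clopper-Pearson interval 6.63 to 11.8) and 14.8% (10.1 to 20.7) of IMQ lymphocytes had a Saa3 UMI. The shares of IMQ and IMQ+SHP099 mural cells (2.26% to 6.39%), keratinocytes (5.07% to 7.58%), Langerhans cells (5.10% to 7.69%) and lymphatic cells (6.82% to 11.05%) lay within or below that IMQ range. The mean share of IMQ+SHP099 lymphocytes was lower, at 7.35%. Whether any of these shares is background was not tested. In fibroblasts the shares were 0.733% and 0.452% in Sham, 61.4% (59.7 to 63.0) and 43.7% (42.4 to 44.9) in IMQ, then 57.9% and 34.7% in IMQ+SHP099. The intervals cover counting error only.

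**Figure D2:**
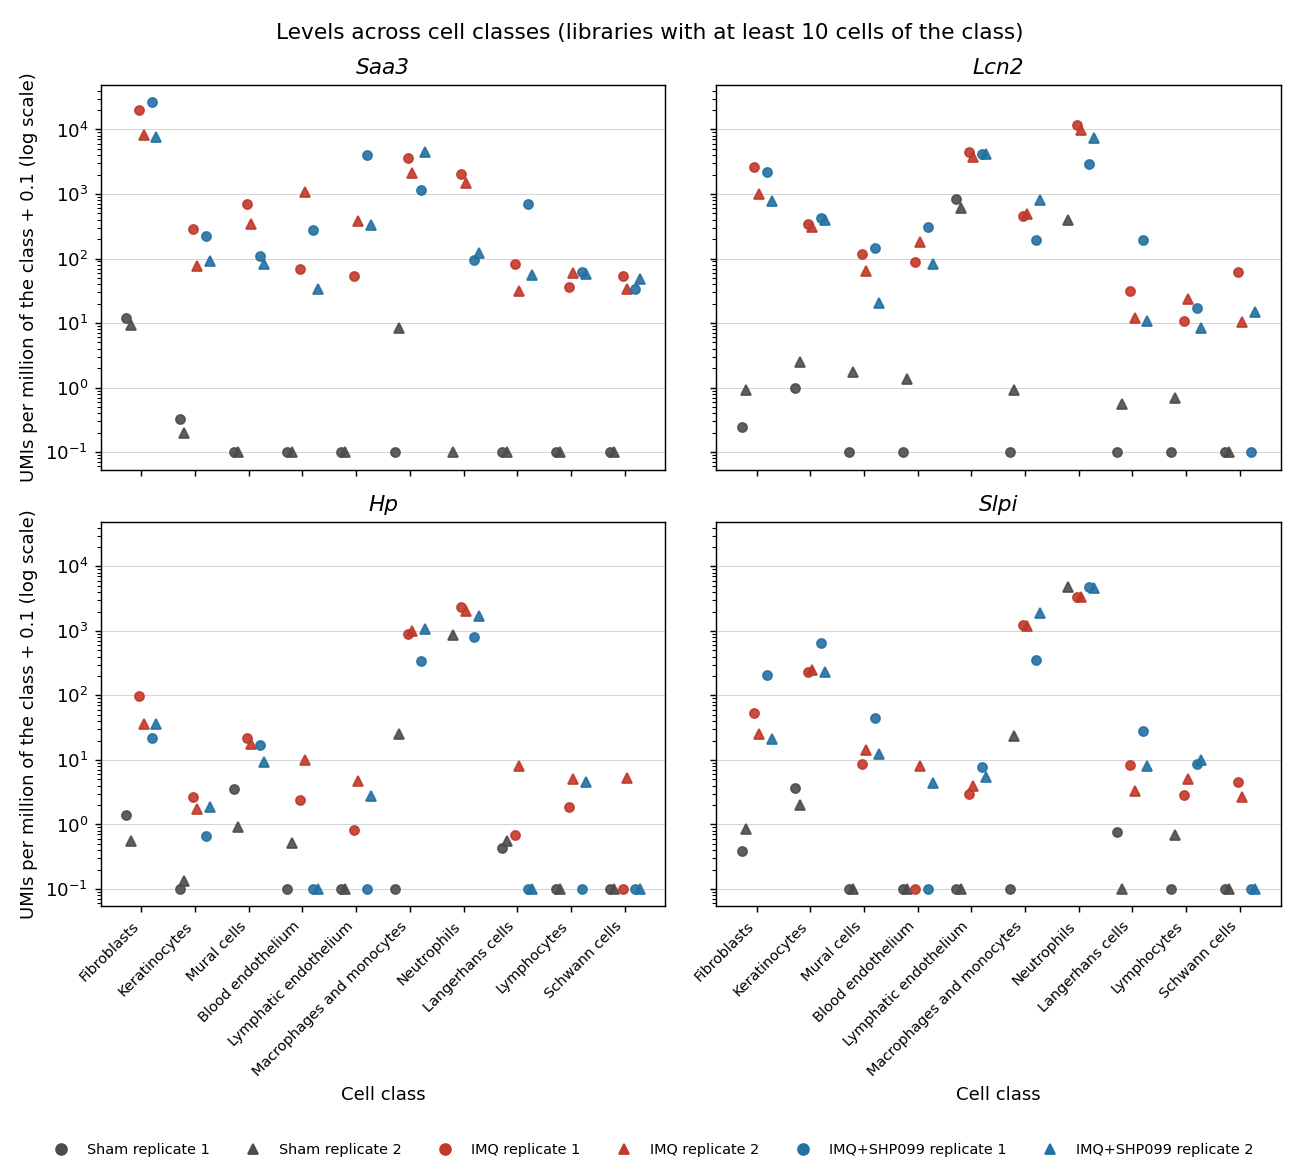
Levels of Saa3, Lcn2, Hp and Slpi (1 panel each) in 10 cell classes, in CPM of the class plus 0.1 on a log axis, 1 point per library with at least 10 cells of the class. Saa3 is highest in fibroblasts, Lcn2 in neutrophils and lymphatic endothelium, and Hp and Slpi in neutrophils and macrophages and monocytes.

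Saa1 and Saa2, the liver forms, had few UMIs, and their counts are uncertain because reads could be split between these near-identical copies. In fibroblasts Saa1 stood at 0.867 and 0.489 in Sham, 156 and 54.2 in IMQ, then 101 and 55.2 in IMQ+SHP099 (log2 fold change 7.65, SE 0.82, edgeR adjusted p = 0.0251). Saa2 there stood at 0.145 and 0.172, 25.2 and 5.57, and 16.7 and 7.63, and missed the threshold (log2 fold change 6.71, SE 1.08, edgeR adjusted p = 0.0578). For both genes every treated library lay above both Sham libraries. The Saa1 call was lost without Sham replicate 2 (adjusted p = 0.120), IMQ+SHP099 replicate 1 (0.0718) and IMQ+SHP099 replicate 2 (0.0724).

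Among the subsets, the Coch side gave calls for both, Saa1 at 0 and 0.0950 against 105 and 65.3 and Saa2 at 0 and 0.190 against 18.1 and 9.51. With 1 and 2 UMIs in Sham, the ratios of summed counts were 992 (95% counting interval 178 to 39201) and 79.7 (21.9 to 661), and the Saa2 call was lost without Sham replicate 2 (adjusted p = 0.0946). Plac8 side Saa1 rose from 0.468 and 1.09 to 202 and 56.0 (log2 fold change 7.41, edgeR adjusted p = 0.0233; 0.0601 to 0.182 without either Sham or either IMQ+SHP099 library). Wif1 side Saa1 rose from 0 and 0.187 to 37.8 and 32.7, a ratio of counts of 189 (51.6 to 1573), lost without Sham replicate 2 (adjusted p = 0.153). Fibroblasts held 86.1% and 93.1% of the Saa1 UMIs of the IMQ libraries.

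Keratinocyte Saa1 stood at 0.125 and 0.299 in Sham, 4.44 and 0.476 in IMQ, then 1.53 and 1.18 in IMQ+SHP099. The rise was called (log2 fold change 3.98, SE 1.00, edgeR adjusted p = 0.0341) but rested on IMQ replicate 1, without which it was 1.51 (adjusted p = 0.512). The call was also lost without either Sham library (0.123 and 0.079) and without either IMQ+SHP099 library (0.0889 and 0.0862). Saa2 in keratinocytes had 1 UMI in Sham, and its ratio of counts was 62.8 (10.6 to 2542), with levels of 0.312 and 1.03 CPM in IMQ. That call (edgeR adjusted p = 0.0161) was lost without Sham replicate 1 (0.0717), IMQ replicate 2 (0.0928) and IMQ+SHP099 replicate 1 (0.0533). Neither gene reached the filter on low counts in the myeloid, vascular, lymphocyte or Schwann classes.

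Lcn2, the siderophore-binding lipocalin, was found in leukocytes, vessels, fibroblasts and keratinocytes. Neutrophils stood highest in IMQ, at 11544 and 9950.5 CPM, followed by lymphatic endothelium (4490.0 and 3726), fibroblasts (2612 and 1004), macrophages and monocytes (461 and 496), keratinocytes (345 and 304), blood endothelium (88.2 and 181), mural cells (116 and 64.3), Langerhans cells (31.2 and 11.9) and lymphocytes (10.8 and 23.5). Among these 9 classes the IMQ ranges of neighbours overlapped for blood endothelium and mural cells and for Langerhans cells and lymphocytes, and for no other neighbours. Neutrophils numbered 4 and 10 in Sham, where their Lcn2 was 547 and 399, so this class was not tested. The levels of 2925 and 7419 in IMQ+SHP099 neutrophils came from 10 and 93 cells.

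Lymphatic endothelium held most of the Lcn2 UMIs of untreated skin. It made up 1.05% and 1.58% of Sham cells and held 75.0% and 79.7% of the Lcn2 UMIs of those libraries. Its Lcn2 level was 833 and 598 in Sham, 4490.0 and 3726 in IMQ, then 4234 and 4236 in IMQ+SHP099, a 5.77-fold rise from Sham to IMQ (log2 fold change 2.53, SE 0.33, edgeR adjusted p = 0.0326). After thinning, 73.1% (95% interval 59.0 to 84.4) and 55.2% (45.7 to 64.4) of Sham lymphatic cells had a Lcn2 UMI, against 94.2% and 92.3% in IMQ, then 97.7% and 97.3% in IMQ+SHP099. The call was lost without IMQ replicate 1 (adjusted p = 0.125), IMQ replicate 2 (0.0802), IMQ+SHP099 replicate 1 (0.0531) and IMQ+SHP099 replicate 2 (0.0537), while the log2 fold change stayed between 2.39 and 2.66.

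In fibroblasts Lcn2 went from 0.145 and 0.833 in Sham to 2612 and 1004 in IMQ, with 2231 and 782 in IMQ+SHP099. The log2 fold change of IMQ against Sham was 11.68 (SE 1.11, edgeR adjusted p = 0.0243), with adjusted p of 0.0947 without Sham replicate 2, 0.0629 without IMQ+SHP099 replicate 1 and 0.0607 without IMQ+SHP099 replicate 2. The fibroblast share of a library's Lcn2 UMIs was 0.298% and 4.12% in Sham and 69.4% and 62.8% in IMQ. Every subset rose. Coch side fibroblasts had 0 and 0.570 in Sham, 3278 and 1582 in IMQ, then 3174 and 1632 in IMQ+SHP099 (log2 fold change 12.34, SE 0.92, edgeR adjusted p = 6.2e-04). Plac8 side fibroblasts had 0 and 0.467, 2338 and 839.9, and 1297 and 417, a ratio of counts of 4660.1 (1595 to 22598; edgeR adjusted p = 0.012), lost without Sham replicate 1 (0.119) and Sham replicate 2 (0.0914). On the Wif1 side the levels were 0 and 0.0933, 308 and 154, and 96.0 and 82.0, a ratio of counts of 2181 (391 to 86208; edgeR adjusted p = 6.44e-05).

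Keratinocyte Lcn2 rose 262-fold, from 0.877 and 2.39 to 345 and 304, with 419 and 389.5 in IMQ+SHP099 (log2 fold change 8.03, SE 0.51, edgeR adjusted p = 1.55e-04). It was called in each layer, at 358 and 304 in basal, 216 and 182 in suprabasal and 719 and 529 in upper follicle keratinocytes of IMQ. The thinned share of keratinocytes with Lcn2 was 0.137% and 0.408% in Sham and 36.4% (33.8 to 39.2) and 33.2% (29.9 to 36.6) in IMQ. Lymphocytes, with 2.14% and 3.17% in IMQ, lay far below.

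Macrophages and monocytes rose in Lcn2 from 0 and 0.820 (1 UMI) to 461 and 496, a ratio of counts of 641 (115 to 25317; edgeR adjusted p = 0.00141), lost without Sham replicate 2 (0.275). Their monocyte side stood at 571 and 601 in IMQ and their resident side at 25.1 and 13.0, and the latter did not pass (adjusted p = 0.189). Blood endothelium had 0 and 1.25 in Sham against 88.2 and 181 in IMQ (ratio of counts 116, 39.3 to 566; edgeR adjusted p = 0.0455), a call lost without Sham replicate 2 (0.31) and under several other settings. The summed level of 6 neutrophil markers in macrophages and monocytes was 16.2 and 50.05 CPM in Sham, 1611 and 2758 in IMQ, then 1000.3 and 3079.99 in IMQ+SHP099, with Ly6g at 0 in all 6 libraries. S100a8 and S100a9 are on that list, and S100a8 is also among the genes that most set the monocyte side apart. The sum therefore does not mark neutrophils alone in this class. Its part in the myeloid values of Lcn2, Hp and Slpi was not tested.

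Hp, which binds haemoglobin, stood highest in myeloid cells. Macrophages and monocytes had 0 and 25.4 in Sham, 911 and 996 in IMQ, then 340.2 and 1053 in IMQ+SHP099, 57.4-fold higher in IMQ for a class of changed makeup (log2 fold change 5.84, SE 0.78, edgeR adjusted p = 0.00241), a call lost without Sham replicate 2 (0.147). The thinned share of these cells with Hp was 0% (0 of 25 cells, 95% interval 0 to 13.7) and 3.88% in Sham against 64.5% (59.5 to 69.3) and 69.5% (64.4 to 74.2) in IMQ. Neutrophils of IMQ had 2331 and 2006 CPM. The monocyte side had 1109.8 and 1206 in IMQ and resident macrophages 67.0 and 7.80, with 972 and 1182 and then 16.7 and 12.1 in IMQ+SHP099. Hp and Slpi are among the 10 genes that most set the monocyte side apart, so that contrast within the class is no test.

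Fibroblast Hp rose from 1.30 and 0.460 to 98.8 and 35.4, with 21.8 and 35.8 in IMQ+SHP099 (log2 fold change 6.74, SE 0.81, edgeR adjusted p = 0.0310). It was lost without Sham replicate 2 (0.120), IMQ+SHP099 replicate 1 (0.0886) and IMQ+SHP099 replicate 2 (0.0883). In the IMQ libraries the 344 and 614 fibroblasts with the most Hp, out of 3445 and 6139, held all of its UMIs in this class. It was called on the Plac8 side (5.74, edgeR adjusted p = 0.0192), the Coch side (ratio of counts 846, 152 to 33445) and the Wif1 side (5.31, edgeR adjusted p = 0.00218), and each of these was lost without Sham replicate 2 (0.106, 0.139 and 0.213), that of the Plac8 side also without Sham replicate 1 (0.112) and either IMQ+SHP099 library (0.0601 and 0.0725). In keratinocytes 1 UMI in Sham set against 2.57 and 1.67 CPM in IMQ gave a ratio of 247 (43.6 to 9799; edgeR adjusted p = 0.00284). The cells that no gate took held 42.6% and 38.2% of the Hp UMIs of the IMQ libraries and 8.45% and 8.02% of their cells, so the classes leave out much of the Hp signal.

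Steap4, the metalloreductase, was already present in untreated skin. Fibroblasts had 58.1 and 74.7 CPM in Sham, 481 and 426 in IMQ, then 331 and 436 in IMQ+SHP099. The rise to IMQ was 7.26-fold (log2 fold change 2.86, SE 0.29, edgeR adjusted p = 0.0251), lost without Sham replicate 2 (0.0773), IMQ replicate 1 (0.0772), IMQ+SHP099 replicate 1 (0.0629) and IMQ+SHP099 replicate 2 (0.0607), with log2 fold changes of 2.75 to 2.88. The thinned share of fibroblasts with Steap4 went from 8.59% (6.89 to 10.5) and 11.1% (10.0 to 12.2) to 47.9% (46.2 to 49.6) and 45.1% (43.8 to 46.4). By subset the log2 fold change was 2.49 (SE 0.34) on the Plac8 side, 3.05 (SE 0.32) on the Coch side and 1.52 (SE 0.34) on the Wif1 side (edgeR adjusted p of 0.0263, 0.00173 and 0.0256). The Plac8 side call was lost on leaving out each of the 6 libraries in turn (0.055 to 0.168) and the Wif1 side call on leaving out either Sham or either IMQ library (0.0572 to 0.253), while the Coch side call held on leaving out each library.

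Keratinocytes of Sham held 9.83 and 26.6 Steap4 CPM, against 29.3 and 43.5 in IMQ, then 16.5 and 25.4 in IMQ+SHP099. This small rise was called (log2 fold change 1.36, SE 0.35, edgeR adjusted p = 0.0366) and was lost on leaving out each library except Sham replicate 2 (0.0679 to 0.189). Suprabasal cells rose 17.0-fold, from 1.36 and 1.80 to 22.1 and 21.9 (log2 fold change 4.09, SE 0.29, edgeR adjusted p = 7.23e-05), while basal cells went from 13.9 and 40.0 to 35.4 and 67.7 (1.22, SE 0.40, edgeR adjusted p = 0.0711) and upper follicle cells from 6.40 and 55.0 to 28.0 and 33.6 (0.32, adjusted p = 0.779). Whether the layers differ in this response was not tested. In mural cells Steap4 stood at 3.45 and 80.5 in Sham and 27.2 and 26.0 in IMQ, with no call (edgeR adjusted p = 0.701). Their pericytes, too few to be tested, stood at 0 and 291 in Sham and 79.3 and 36.2 in IMQ. Pericytes numbered 5 and 90 of 98 and 257 mural cells in Sham, and 43 and 45 of 611 and 1056 in IMQ. In the mural Steap4 values a change within cells and a change in makeup cannot be told apart.

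Slpi, the elastase inhibitor, stood highest in myeloid cells and mast cells and was also found in keratinocytes. Keratinocytes had 3.52 and 1.89 in Sham, 227 and 244 in IMQ, then 648 and 232 in IMQ+SHP099, a 97.8-fold rise to IMQ (log2 fold change 6.61, SE 0.76, edgeR adjusted p = 0.00143). Levels in IMQ were 146 and 62.0 in basal, 295 and 420.0 in suprabasal and 263 and 323 in upper follicle cells, all called. The thinned share of keratinocytes with Slpi was 0.464% and 0.233% in Sham, 18.9% (16.8 to 21.2) and 17.6% (15.0 to 20.5) in IMQ, then 38.0% and 19.1% in IMQ+SHP099.

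Macrophages and monocytes rose in Slpi from 0 and 23.8 to 1228 and 1188, with 350.4 and 1928 in IMQ+SHP099 (log2 fold change 6.28, SE 0.94, edgeR adjusted p = 0.00413, 0.226 without Sham replicate 2). The untested classes stood higher, with 3382 and 3334 in IMQ neutrophils and 1900.4 and 4922 in 49 and 23 IMQ mast cells and basophils, where Sham had no Slpi UMI. Fibroblast Slpi was 0.289 and 0.747 in Sham, 54.2 and 24.9 in IMQ, then 211 and 21.1 in IMQ+SHP099, and did not pass (log2 fold change 6.17, SE 1.28, edgeR adjusted p = 0.0922). On the Coch side it stood at 0 and 1.24 against 88.6 and 65.1 (6.29, edgeR adjusted p = 0.021), and on the Plac8 side at 0.234 and 0.623 against 16.8 and 12.7 (5.10, edgeR adjusted p = 0.012). Both calls were lost without either Sham library (0.0735 to 0.203).

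Serpina3n, the antichymotrypsin relative, had most of its UMIs in fibroblasts, 83.9% and 93.2% in Sham and 93.4% and 94.4% in IMQ. Such a share depends on cell numbers too, and lymphatic endothelium stood at 658 and 272 CPM in Sham. The fibroblast level was 418 and 287 in Sham, 2692 and 1609 in IMQ, then 3302 and 1727 in IMQ+SHP099, 6.23-fold higher in IMQ with no overlap, though it missed the threshold (log2 fold change 2.64, SE 0.57, edgeR adjusted p = 0.102). The subsets had different Sham levels. The Coch side started highest, at 898 and 463, and reached 2849 and 2226 in IMQ (log2 fold change 1.79, SE 0.53, edgeR adjusted p = 0.115). The Plac8 side went from 161 and 177 to 2537 and 1348, 12.1-fold (3.60, SE 0.53, edgeR adjusted p = 0.0348), lost on leaving out each library except IMQ replicate 2 (0.0607 to 0.166). The Wif1 side went from 76.7 and 35.1 to 1029 and 759, 19.7-fold (4.30, SE 0.45, edgeR adjusted p = 6.32e-04), and IMQ+SHP099 stood at 1268 and 1228. The thinned share of Wif1 side cells with Serpina3n was 5.77% and 4.07% in Sham and 63.5% and 53.4% in IMQ.

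Keratinocytes rose 12.5-fold in Serpina3n at low levels, from 2.25 and 1.99 to 28.7 and 16.1 (log2 fold change 3.65, SE 0.42, edgeR adjusted p = 0.00136). Schwann cells went from 25.3 and 71.2 to 649 and 643, with 33.5 and 487 in IMQ+SHP099, where 12 cells of replicate 1 gave the low value (log2 fold change 3.48, SE 0.58, edgeR adjusted p = 0.00801, DESeq2 adjusted p of 1). Lymphatic endothelium had 658 and 272 in Sham and 1423 and 1012 in IMQ, which was not called (1.38, SE 0.47, adjusted p = 0.325). Macrophages and monocytes held only 0 and 7.38 in Sham and 7.19 and 6.90 in IMQ (0.38, adjusted p = 0.769).

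**Figure D3:**
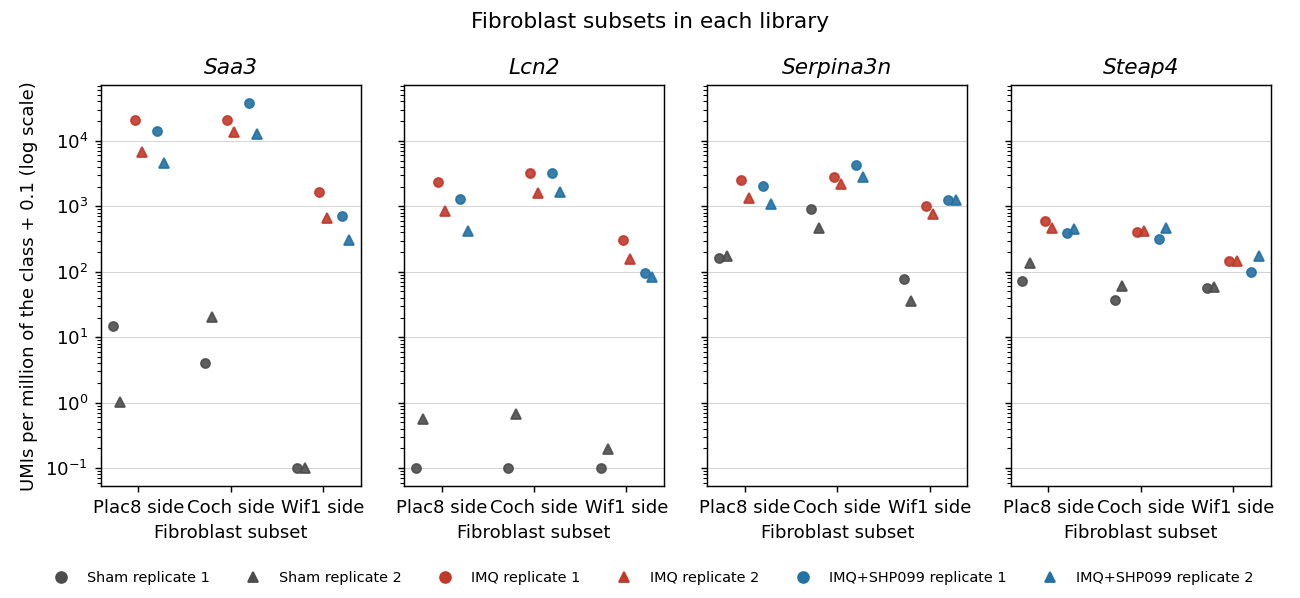
Levels of Saa3, Lcn2, Serpina3n and Steap4 (1 panel each) in the Plac8, Coch and Wif1 side fibroblasts, in CPM of the subset plus 0.1 on a log axis, 1 point per library. Serpina3n and Steap4 start from clear Sham levels in all 3 subsets, while Saa3 and Lcn2 start near 0 and stay lowest on the Wif1 side after treatment.

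Within the fibroblast subsets the number of tested genes called higher in IMQ was 7 of 8 on the Plac8 side, 7 of 8 on the Coch side and 7 of 7 on the Wif1 side, against 0.227%, 1.53% and 2.88% of all genes. The gene that was not called was Saa2 on the Plac8 side (adjusted p = 0.121) and Serpina3n on the Coch side. Among keratinocyte layers it was 6 of 7 in basal, 7 of 7 in suprabasal and 4 of 5 in upper follicle cells. The shares of all genes called in these layers were given above with Saa3. Over the 8 subsets 3.26% of all gene and subset pairs were called higher.

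The response to IMQ was then compared between fibroblasts and keratinocytes of the same libraries, in a fit of the difference itself with the library as a block. Lcn2 rose more in fibroblasts, by 3.71 on the log2 scale (SE 0.62, edgeR adjusted p = 0.0122), and so did Saa1, by 3.90 (SE 0.88, edgeR adjusted p = 0.0320). These were 2 of 8 genes, beside 9.39% of all genes (1488 of 15853) called either way, and 4 of 8 had an unadjusted p under 0.05, as had 27.3% of all genes (4326). Steap4 differed by 1.40 (SE 0.39, adjusted p = 0.0590) and Serpina3n by -1.01 (SE 0.29, adjusted p = 0.0652), short of the threshold. Saa3 (0.29), Slpi (-1.03), Hp (-1.64) and Saa2 (0.88) gave adjusted p of 0.408 to 0.943. Leaving out 1 library gave 1 to 3 calls, 3 without Sham replicate 1 and 1 without Sham replicate 2 or either IMQ+SHP099 library.

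The same test between Coch side and Plac8 side fibroblasts called 0 of 8 genes (0.676% of all genes, 91 of 13456). Serpina3n rose less on the Coch side by -1.59 (SE 0.33) at an unadjusted p of 0.00134 (edgeR adjusted p = 0.0894), and Steap4 differed by 0.59 at an unadjusted p of 0.0280 (adjusted p = 0.348). These were the 2 of 8 with an unadjusted p under 0.05, as had 11.8% of all genes (1591), and no other tool was run on this difference.

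**Figure D4:**
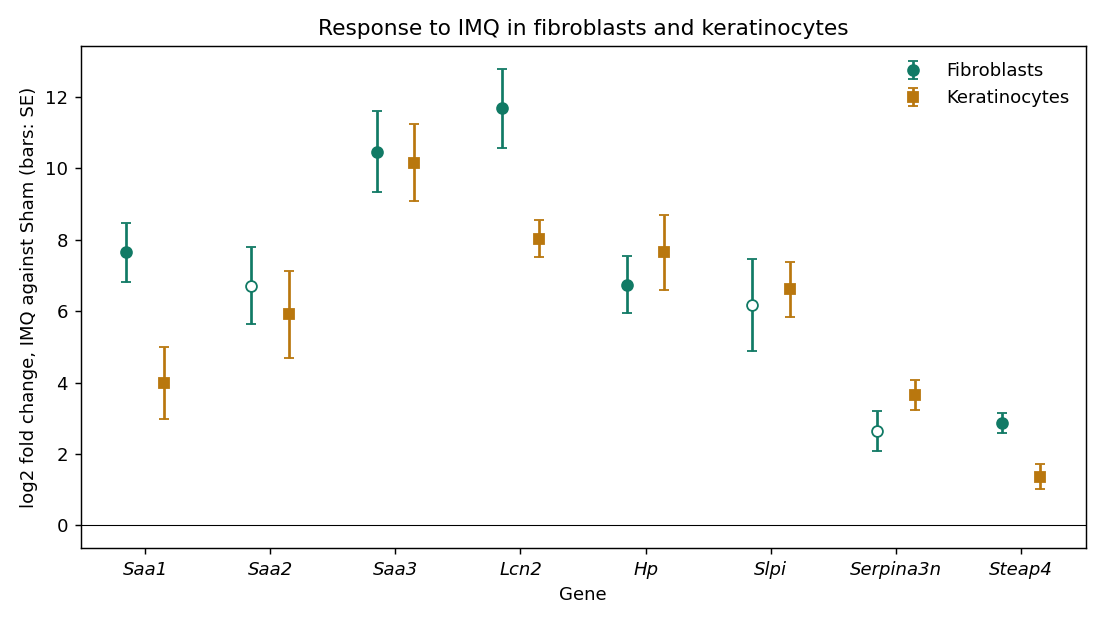
The log2 fold change of IMQ against Sham (y axis, bars are SE) for each gene in fibroblasts (circles) and keratinocytes (squares), with filled symbols for called changes and open symbols for others. Lcn2 and Saa1 lie highest above keratinocytes in fibroblasts, at 11.68 against 8.03 and 7.65 against 3.98, while Saa3 lies at 10.46 and 10.16.

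Within the fibroblasts the transcripts were uneven from cell to cell. The 344 and 614 fibroblasts with the most Saa3 held 60.2% and 77.0% of its UMIs in the IMQ libraries. The same number with the most Lcn2 held 54.9% and 66.7% of Lcn2, and those with the most Serpina3n held 40.2% and 49.0% of Serpina3n. Lcn2 was found more often in fibroblasts that had Saa3. After thinning, 76.2% and 60.6% of Saa3-positive IMQ fibroblasts had a Lcn2 UMI, against 39.3% and 21.6% of the Saa3-negative ones, and in IMQ+SHP099 the shares were 71.5% and 55.5% against 24.4% and 14.0%. Serpina3n gave 90.0% and 83.3% against 68.0% and 55.5% in IMQ, and Steap4 gave 54.4% and 53.6% against 36.9% and 38.5%. Cells share a library and their depth was set equal, so these are descriptions with no test.

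**Figure D5:**
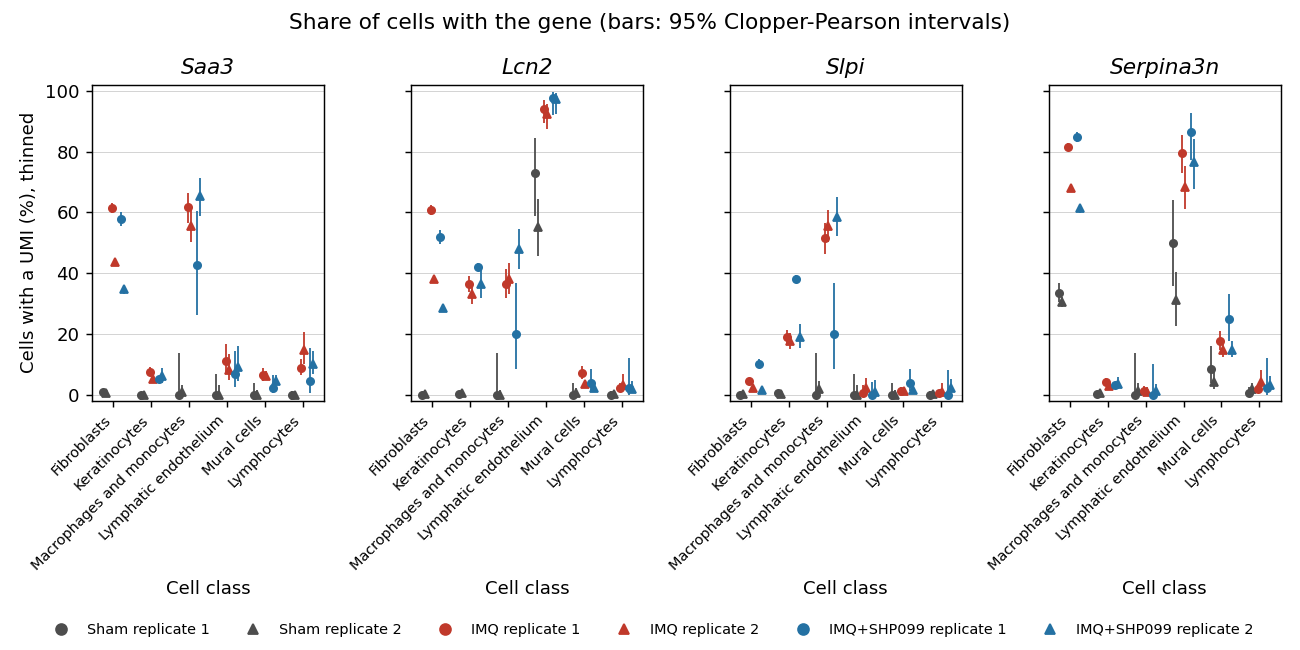
Percent of cells with a UMI of Saa3, Lcn2, Slpi and Serpina3n (1 panel each) in 6 classes after thinning to 2000 UMIs per cell, 1 point per library with its 95% Clopper-Pearson interval. Saa3 is found in 34.7% to 61.4% of treated fibroblasts and 42.9% to 65.3% of treated macrophages and monocytes, against 4.55% to 14.8% of treated lymphocytes.

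SHP099 was given to ask which changes of IMQ skin the SHP2 inhibitor moves, and the IMQ+SHP099 libraries were compared with IMQ. None of the tested genes was called in edgeR, 0 of 46 pairs in the 9 classes and 0 of 50 in the 8 subsets, where 0.0% of all genes were called in each of the 17 sums. At an unadjusted p under 0.05 there were 3 of 46 and 12 of 50, beside 2.42% and 2.33% of all gene and class pairs. DESeq2 called 1 and 1, beside 0.0145% and 0.027% of all pairs. Without the filter on low counts some pairs were called, as given in the closing section on processing. The median log2 fold change was 0.06 and -0.02, against 6.04 and 6.21 for IMQ against Sham. The contrasts share the IMQ libraries.

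The intervals of the differences are wide. In fibroblasts the log2 fold change of IMQ+SHP099 against IMQ was 0.36 for Saa3 (95% interval -1.40 to 2.13), -0.16 for Lcn2 (-1.75 to 1.44), -0.34 for Saa1 (-1.64 to 0.96), -1.16 for Hp (-2.50 to 0.18), 1.68 for Slpi (-0.50 to 3.86), 0.33 for Serpina3n (-0.92 to 1.58) and -0.17 for Steap4 (-0.79 to 0.46). Keratinocyte values were 0.45 for Lcn2 (-0.40 to 1.30), 1.12 for Slpi (-0.26 to 2.49), -0.04 for Saa3 (-1.62 to 1.54) and -0.70 for Steap4 (-1.49 to 0.09). Macrophages and monocytes gave 0.19 for Lcn2 (-1.04 to 1.41), 0.03 for Saa3 (-1.31 to 1.37), -0.37 for Hp (-1.65 to 0.91) and 0.00 for Slpi (-1.51 to 1.52). Lymphatic Lcn2 gave the narrowest of the intervals quoted here apart from Steap4 in fibroblasts, 0.09 (-0.61 to 0.78).

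The 15 pairs with an unadjusted p under 0.05 are given here, none of them past the adjustment in edgeR. The subsets are parts of the classes, so some pairs share cells. Mural Saa3 lay lower by -2.36 on the log2 scale (SE 0.40, unadjusted p = 7.83e-04, DESeq2 adjusted p = 7.6e-05), on the few cells named above, and smooth muscle Saa3 by -2.38 (unadjusted p = 9.04e-04, DESeq2 adjusted p = 8.09e-05). On the Wif1 side of the fibroblasts 4 genes lay lower in IMQ+SHP099: Lcn2 by -1.34 (unadjusted p = 0.00298), Saa1 by -1.26 (0.0243), Saa3 by -1.19 (0.0334) and Hp by -1.40 (0.0341). Their libraries were given above for Lcn2 and Saa3, and Saa1 stood at 3.62 and 19.8 in IMQ+SHP099. Slpi lay higher in basal keratinocytes, by 1.84 (unadjusted p = 0.0138), at 490.0 and 174 against 146 and 62.0, and on the Coch side, by 1.76 (0.0441), where IMQ+SHP099 replicate 1 stood at 418 and replicate 2 at 53.6. Suprabasal Steap4 lay lower by -0.79 (0.0115), at 10.6 and 12.8 against 22.1 and 21.9. Lymphatic Saa3 lay higher by 3.35 (0.0150), with nearly all UMIs of replicate 1 in the single cell described above. The other pairs were Lcn2 in resident macrophages, higher by 2.09 (0.0123), Serpina3n in suprabasal keratinocytes, higher by 0.72 (0.0464), Steap4 in blood endothelium, lower by -3.08 (0.0377), Hp on the Plac8 side, lower by -1.27 (0.0330), and Steap4 in basal keratinocytes, lower by -0.93 (0.0464). The resident macrophages of IMQ+SHP099 held 5 and 18 Lcn2 UMIs in 25 and 31 cells. Blood endothelium of IMQ+SHP099 held 1 and 0 Steap4 UMIs in 19 and 35 cells.

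The IMQ+SHP099 libraries were also compared with Sham. Of the 46 pairs 15 were called higher, beside 1.33% of all gene and class pairs: 6 of 8 in keratinocytes (6.97% of all genes), 4 of 8 in fibroblasts (0.101%), 4 of 5 in macrophages and monocytes (1.7%) and 1 of 4 in lymphatic endothelium (0.0353%). None was called in Langerhans cells (0.1%), Schwann cells (0.146%), blood endothelium, mural cells or lymphocytes (0.0% each). In the same order 4, 2, 4, 5 and 4 of these had an unadjusted p under 0.05 in edgeR, and DESeq2 called 4, 0, 1, 5 and 1. Over all gene and class pairs 15.1% had such a p and DESeq2 called 5.28%. In Langerhans cells these shares were 8.5% and 0.923%, and in lymphocytes 8.23% and 0.372%. In fibroblasts the called genes were Lcn2 (log2 fold change 11.53), Saa3 (10.83), Saa1 (7.31) and Steap4 (2.70), with edgeR adjusted p of 0.0278 to 0.0317, and each was lost without Sham replicate 2 or either IMQ+SHP099 library (0.0877 to 0.194). This contrast shares the Sham libraries with IMQ against Sham and is no separate support for it.

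The genes around the acute-phase response were read in the same fits from 5 lists, to be set beside the 1.31% of all pairs called higher in IMQ and the 1.77% called lower. Of the inducing cytokines 11 tested pairs of 45 rose in IMQ and none fell. Keratinocyte Il1f9, an IL-36 family cytokine, rose from 9.17 and 7.54 to 123 and 108 (log2 fold change 4.02, SE 0.42, edgeR adjusted p = 0.00101). In macrophages and monocytes Il1b rose from 32.4 and 124 to 1404 and 814 (3.88, SE 0.56, edgeR adjusted p = 0.00353) and Il6 from 8.09 and 3.28 to 36.6 and 36.8 (3.51, edgeR adjusted p = 0.0074). The Il6 level of Sham replicate 1 lay under the floor of 3 UMIs in its 36 cells, which is 24.3 CPM. Of the cytokine receptors 1 of 63 rose and 1 fell, the latter keratinocyte Il6ra, the IL-6 binding receptor chain, from 62.2 and 71.2 to 8.48 and 7.10 (-2.82, SE 0.28, edgeR adjusted p = 8.29e-04), where 8.22% of all genes were called lower. Transcription factors and feedback genes gave 2 rises of 80.

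Other acute-phase genes gave 10 rises and 2 falls of 99 pairs. Fibroblast Cp, which codes for the copper ferroxidase ceruloplasmin, rose from 58.8 and 44.6 to 498 and 362 (log2 fold change 3.099, SE 0.45, edgeR adjusted p = 0.0444), and macrophage Lrg1 rose from 0 and 11.5 to 178 and 152 (4.33, edgeR adjusted p = 0.00191). The falls were C4b (-2.68) and Cp (-2.18) in macrophages and monocytes as a whole, where 4.12% of all genes were called lower. In the resident macrophages alone neither was called (C4b -1.26, adjusted p = 0.577, and Cp 0.04, adjusted p = 0.996). Orm1, an acute-phase carrier protein, was called in both layers named here, although the difference between them was not tested. It rose in basal keratinocytes from 9.83 and 5.75 to 135 and 146 (4.25, SE 0.44, edgeR adjusted p = 7.68e-04) and fell in suprabasal ones from 424 and 254 to 90.7 and 113 (-1.51, SE 0.36, edgeR adjusted p = 0.0185), where 10.2% of all genes were called lower. Among the partners of the 8 genes 3 of 32 pairs rose and 1 fell. Cd163, the macrophage receptor that takes up haptoglobin bound to haemoglobin, fell from 56.6 and 379.9 to 18.3 and 4.98 in macrophages and monocytes (-4.13, SE 0.90, edgeR adjusted p = 0.0222). Within the resident macrophages, whose share of that class was lower in IMQ, its log2 fold change was -1.87 (SE 0.74) and missed the threshold (edgeR adjusted p = 0.390). Hmox1, which breaks down haem, rose in keratinocytes (2.61, SE 0.34, edgeR adjusted p = 0.00236). No listed gene was called for IMQ+SHP099 against IMQ in edgeR (0 of 319 pairs, 27 at an unadjusted p under 0.05, 2 in DESeq2). Over all gene and class pairs 2.42% had such an unadjusted p in edgeR, and DESeq2 called 0.0145%.

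The genes most like each of the 8 were taken by Pearson's r of log2(CPM + 1) over 67 sums of a class in a library, among 10976 genes. The sums share libraries and classes, so r is a description. Lcn2 was most like Saa3 (0.74), S100a9 (0.72) and S100a8 (0.72), and Saa3 most like Lcn2 (0.74), Cxcl13 (0.66) and C3 (0.66). Hp was most like the neutrophil collagenase gene Mmp8 (0.88), F10 (0.88) and Trem3 (0.87), and Slpi like S100a8 (0.80), Cd300lf (0.78) and Slc16a3 (0.77). Serpina3n was most like Angptl2 (0.83), Prelp (0.82) and Serping1 (0.82), Steap4 like Tnc (0.77), Svep1 (0.77) and Fbln1 (0.75), and Saa1 like Cxcl5 (0.77), Serpina3m (0.76) and Wfdc12 (0.73). Saa2 did not reach the level this comparison required.

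Markers of other sources were measured beside these results. The summed level of 4 liver genes (Alb, Apoa1, Apoa2 and Ttr) over all kept cells was 0.583 and 1.09 CPM in Sham, 3.23 and 3.30 in IMQ, then 0.663 and 4.62 in IMQ+SHP099, with Alb at 0 in Sham replicate 1 and Ttr at 0 in both Sham libraries. The 6 neutrophil markers summed to 1.01 and 1.98 in Sham fibroblasts and 174 and 303 in IMQ fibroblasts, and to 4.61 and 2.66 against 32820.2 and 25466 in keratinocytes, where S100a8 and S100a9 are on the list. The 8 fibroblast markers summed to 218 to 393 in keratinocytes and 64.8 to 267 in lymphocytes, against 28367 to 58760.1 in fibroblasts, with no marker at 0. Their part in the results was not tested.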

How the data were processed

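The 6 libraries were 10x 3′ libraries of pooled dorsal skin. The deposited values are raw UMI counts per gene and barcode, made by the authors with Cell Ranger against GRCm38 (mm10), with no normalization. Depth was 51968673 to 170319612 kept UMIs per library. Barcodes under 100000 UMIs, 6500 genes and 10% mitochondrial UMIs were kept, as in the study. No doublets were removed, and 0.752% of gated cells had a Scrublet score above 0.3. Between any pair of libraries 12 to 30 barcodes were shared.

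Counts were scaled to 10000 per cell and logged (scanpy 1.11.5, Python 3.11.15). A cell took the class with the highest mean marker score if that was at least 0.15 and 0.1 above the next, and subsets needed 0.1 and 0.05. Cells within 0.02 of a limit were 3.70% of kept cells, and 7.47% were not gated (4.04% to 11.1% per library). Endothelial cells were gated together and called lymphatic with at least 2 lymphatic markers, and mural cells were gated together before they were split. Both of these rules were set after values were seen. The authors' cell labels and integration were not used here, so differences from the study may come from rebuilt names. The authors' own test was a rank-sum test over cells.

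UMIs were summed per library and class. edgeR 4.0.16 (R 4.3.3) fitted the 6 libraries of each class with TMM, filterByExpr and group as the only term, where every library held at least 10 cells. Calls are Benjamini-Hochberg adjusted p under 0.05 over all genes tested. SE is the log2 fold change over the square root of F. Fold changes come from the fit and levels are not TMM-scaled. Differences between classes were fitted with the library as a block. On simulated fibroblast sums of 14625 genes, 100% of genes changed by 3 on the log2 scale were recovered, and 92% of those raised and 90% of those lowered by 2. Only genes of a higher mean level were changed in this simulation. It therefore does not show the recovery of genes that are near 0 in Sham. For shares of cells, each cell was thinned to 2000 UMIs and shallower cells were left out (376 of 420 lymphocytes in IMQ+SHP099 replicate 1). Clopper-Pearson intervals are at 95%. The exact two-sided permutation test of 2 libraries against 2 cannot give a p below 0.333, so no share could pass.

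Named genes were the 8 genes in every class, the genes of 5 lists past the threshold (at most 3 each way per class with a mean of at least 20 CPM) and the 3 genes most like each. The genes and lists were chosen with earlier results of these data known, and Lcn2 and Saa3 are among the genes the study used to describe its clusters. Coordinates come from GENCODE vM21. No source used here says that a replicate number marks a shared batch, so the numbers were not taken as pairs. Alternatives were RLE factors, no filterByExpr, 2 groups only, a replicate block, DESeq2 1.42.0, a gate margin of 0.2, a mitochondrial limit of 5%, Scrublet removal, Leiden classes, thinning to 1000 UMIs or none, and leaving out each library.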

Additional observations from a re-analysis of the deposited data

Results flagged for a closer look

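The response to IMQ differed between fibroblasts and keratinocytes of the same libraries for 2 of the 8 genes, by a test of the difference itself. Lcn2 rose more in fibroblasts by 3.71 on the log2 scale (SE 0.62, edgeR adjusted p = 0.0122), and Saa1 rose more by 3.90 (SE 0.88, edgeR adjusted p = 0.0320). The keratinocyte rise of Saa1 rested on IMQ replicate 1, at 4.44 CPM against 0.476 in IMQ replicate 2. Saa1 was near 0 in Sham keratinocytes. Of all 15853 genes tested for this difference, 1488 were called either way, and the calls among the 8 genes depended on which library was left out.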

How the results depend on the processing

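The number of gene and class pairs called for IMQ against Sham was 22 of 46 in the 9 classes, and it was 43 without the filter on low counts, 33 with DESeq2 and 11 to 21 on leaving out 1 library. For IMQ+SHP099 against IMQ it was 0, and 9 without the filter, 1 with DESeq2 and 0 on leaving out each library. For IMQ+SHP099 against Sham it was 15, and 41 without the filter, 33 with DESeq2 and 9 to 25 on leaving out 1 library. The fibroblast and keratinocyte difference gave 2 calls and 1 to 3 on leaving out 1 library, and that of the Coch and Plac8 sides gave 0 under each alternative. Thinned shares of IMQ and Sham did not overlap in 43 pairs, in 54 without thinning and in 35 at 1000 UMIs. These 3 counts stand without a share over all genes. The exact permutation test cannot give a p below 0.333 here, so nothing is drawn from them. The counts of calls without the filter and on leaving out 1 library also stand without such a share, and nothing is drawn from those either. DESeq2 called 4.31%, 0.0145% and 5.28% of all gene and class pairs in the 3 contrasts, in the order given.

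A replicate block gave counts of 28, 0 and 27 in the same order, also without a share over all genes. With only 2 numbers, the numbers were not taken as pairs. Deviations of same-numbered samples correlated at -0.23 to 0.46, and all 3 correlations were over 0.1 in lymphocytes (0.21 to 0.46), Langerhans cells (0.18 to 0.41) and basal keratinocytes (0.17 to 0.35). Of 111 called log2 fold changes, 46 stayed called in every alternative that gave a value, and none changed direction. Leaving out Sham replicate 2 lost 54 of them, IMQ+SHP099 replicate 1 36, IMQ+SHP099 replicate 2 32, Sham replicate 1 25, the fit of only 2 groups 15, IMQ replicate 1 14, IMQ replicate 2 11, the wider gate 10 and Leiden classes 7. The cause was not tested. With 2 libraries per group, 3 to 36 macrophages or neutrophils in some Sham sums limit what those values can show.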
